A study of Mus musculus with 8 samples.

Results

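The dual-specificity phosphatases that act on MAP kinases were examined in the cortex of mice fed a normal or a high fat diet. The members, Dusp1, Dusp3, Dusp4, Dusp5, Dusp6, Dusp7, Dusp8 and Dusp14, were taken by gene symbol and made up 8 of the 13996 genes with FPKM values, a level scaled by the depth of the library and the length of the transcript, and 8 of the 19 genes of that table named Dusp. All mice were male C57BL/6 animals. They arrived at 8 weeks of age, received a conventional diet or a diet with 60% fat by weight for 8 weeks, and were killed under ether at 16 weeks. The cortex of 4 normal diet mice and of 4 high fat diet mice was sequenced after removal of ribosomal RNA, with 1 library for each mouse. The comparison asked how the mRNAs of these phosphatases differed between the diets. It describes bulk tissue that the study names as cortex, and the dissected cortical areas are not stated. Markers of striatum, cerebellum and choroid plexus were also present, as given below. Striatal and cerebellar sums were higher in every normal diet mouse than in any high fat diet mouse. The choroid plexus sum overlapped between the diets and was highest in high fat diet mouse 4.

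A MAP kinase is active while a threonine and a tyrosine of its activation loop carry phosphate, and a dual-specificity phosphatase removes both. Several of these phosphatases are themselves induced by the MAP kinase pathway, so they act as feedback inhibitors of ERK, JNK or p38, and in cortical neurons some of them are induced by synaptic activity. The family is usually divided into inducible nuclear enzymes (Dusp1, Dusp4, Dusp5), cytoplasmic ERK phosphatases (Dusp6, Dusp7), an enzyme that prefers JNK and p38 (Dusp8), and small atypical enzymes without the MAP kinase binding domain (Dusp3, Dusp14).

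Upstream sequence is shown for Dusp1, Dusp5 and Dusp8, whose differences by diet kept their side of the threshold whichever single mouse was left out and whose promoters hold letters of a CRE or a CArG box. RefSeq promoter windows on GRCm38.p6, 250 bases before to 50 bases after the start site, matched 7 of the 8 members. Dusp4 was not matched. Capitals mark the CRE (TGACGTCA, the site of CREB), its shorter form TGACG, the E-box CACGTG, and the CArG box, the site of serum response factor. The bases shown lie before the start site of the window. They were cut where an exon of the gene in GENCODE M21 began in the window, so by construction they overlap 0 exons. For Dusp1 and Dusp5 they lie outside the gene. For Dusp8 they lie inside the gene span of RefSeq and GENCODE, because another transcript of the gene starts further upstream. They run from position -250 to -48 of Dusp1 (chr17:26508520-26508722, minus strand), from -250 to -37 of Dusp5 (chr19:53528895-53529108, plus strand) and from -250 to -1 of Dusp8 (chr7:142095285-142095534, minus strand).
Dusp1: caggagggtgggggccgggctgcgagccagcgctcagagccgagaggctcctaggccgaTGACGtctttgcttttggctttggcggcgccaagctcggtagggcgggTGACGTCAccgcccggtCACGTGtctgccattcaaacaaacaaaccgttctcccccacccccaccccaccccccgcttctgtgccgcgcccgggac
Dusp5: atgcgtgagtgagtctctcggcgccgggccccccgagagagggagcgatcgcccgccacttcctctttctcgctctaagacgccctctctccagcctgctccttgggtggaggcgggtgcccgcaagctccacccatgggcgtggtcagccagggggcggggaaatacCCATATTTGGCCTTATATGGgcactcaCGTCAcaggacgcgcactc
Dusp8: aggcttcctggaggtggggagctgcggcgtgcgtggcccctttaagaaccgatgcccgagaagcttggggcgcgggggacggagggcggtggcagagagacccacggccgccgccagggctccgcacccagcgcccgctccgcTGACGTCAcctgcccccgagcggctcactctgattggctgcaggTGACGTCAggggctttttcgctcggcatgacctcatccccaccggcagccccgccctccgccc

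The Dusp1 window held 1 CRE at -143 to -136, a further TGACG at -191 to -187 and an E-box at -126 to -121. The Dusp8 window held 2 CREs, at -107 to -100 and at -63 to -56. The Dusp5 window held 2 adjoining CArG boxes, at -82 to -73 and -72 to -63, and a TGACG on the reverse strand at -55 to -51. Both strands were searched, and every CRE also contains the shorter TGACG. Among 32851 RefSeq windows of the same length, 1.79% held a CRE and 0.0396% held 2 or more, 1.63% held a CArG box and 0.0183% held 2 or more, 20.8% held TGACG and 7.15% held the E-box. Of the 7 members with a window, 2 held a CRE, 1 a CArG box, 3 TGACG and 1 the E-box. The AP-1 site TGANTCA was in 0 of the 7 windows and in 7.81% of all windows, and the GC box GGGCGG was in 6 of the 7 and in 35.7% of all. A match of letters is a description of the window and not a measured binding site.

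Each diet gave the same order of FPKM levels. Dusp3 was the highest, followed by Dusp14, Dusp6, Dusp7, Dusp8, Dusp1, Dusp5 and Dusp4. Neighbours in this order whose mice overlapped were Dusp14 and Dusp6, Dusp7 and Dusp8, and Dusp1 and Dusp5 on the normal diet, and Dusp6 and Dusp7, Dusp7 and Dusp8, and Dusp5 and Dusp4 on the high fat diet. On the normal diet Dusp3 gave 30.1% of the summed FPKM of the 8 genes and Dusp4 2.39%. The summed FPKM was 216 ± 26.5 (SD, n = 4) on the normal diet and 207 ± 19.7 (n = 4) on the high fat diet, and the mice of the diets overlapped. The sum thus stayed within the spread between mice while its parts moved in opposite directions.

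Of the 8 members, 2 were lower on the high fat diet (Dusp1, Dusp5), 2 were higher (Dusp7, Dusp8) and 4 did not pass the threshold. A gene was called where the limma test on log2(FPKM + 0.1) gave a Benjamini-Hochberg adjusted p below 0.05 over 13982 genes. With this rule 33.1% of all genes were called, 15.3% lower and 17.7% higher, so a call was common in this comparison. The mice of the diets did not overlap in the 4 called members, and 31.9% of all genes showed such a separation, 14.7% with the high fat diet lower and 17.2% with it higher. Both lower members also changed by over 1.5 times, and none of the higher members did. A call of that size was made for 7.13% of all genes, 2.9% in the lower direction and 4.23% in the higher direction. The median log2 fold change was -0.11 over the members and 0.0031 over all genes. In tissue RNA of this kind, fewer cells of a type and less RNA per cell cannot be told apart.

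**Figure D1:**
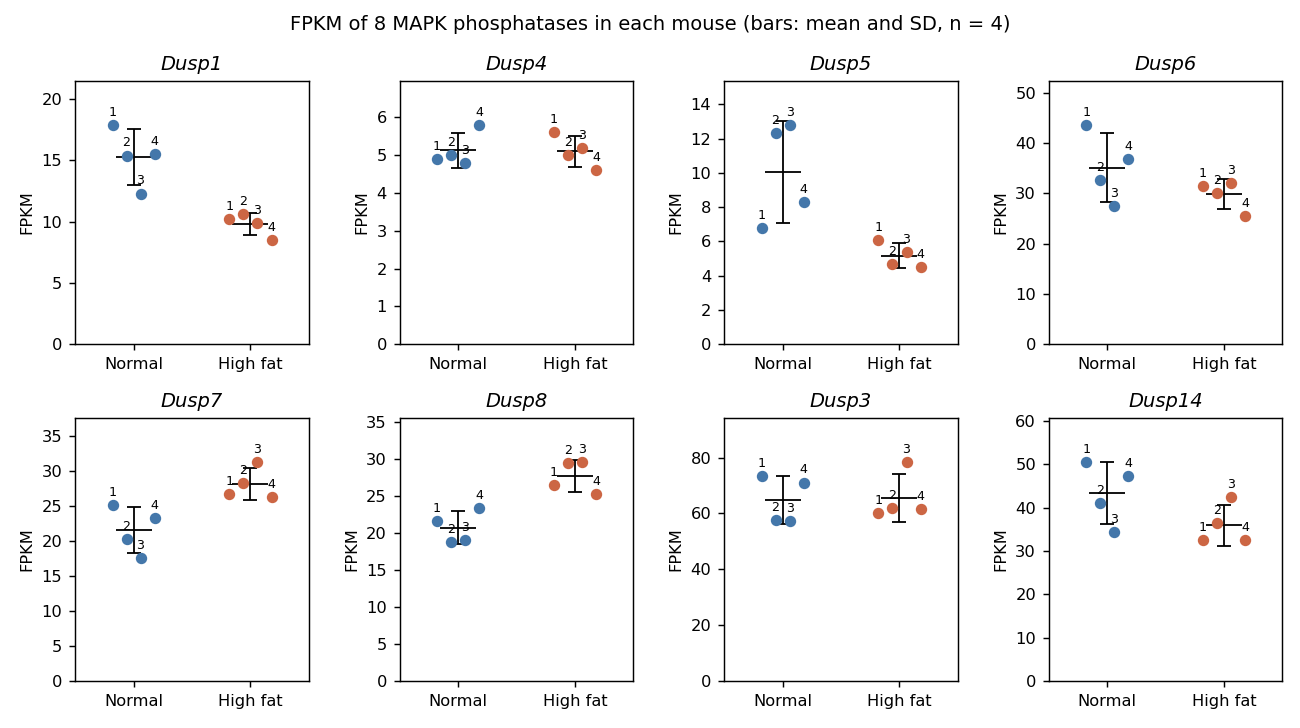
FPKM (vertical axis, from 0) of the 8 phosphatases in each normal diet and high fat diet mouse, with 1 point per mouse numbered by replicate and bars for the mean and SD (n = 4). Dusp1 and Dusp5 lie lower in all high fat diet mice, Dusp7 and Dusp8 lie higher in all of them, and the other members overlap.

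Dusp1 (ENSMUSG00000024190.6, chr17:26505591-26508472), also called MKP-1, is the immediate early nuclear phosphatase of p38, JNK and ERK. Its FPKM was 17.9, 15.4, 12.3 and 15.5 in normal diet mice 1 to 4 and 10.2, 10.6, 9.9 and 8.5 in high fat diet mice 1 to 4. The lowest normal diet mouse thus lay above the highest high fat diet mouse. The mean fell from 15.3 ± 2.30 (SD, n = 4) to 9.8 ± 0.913 (n = 4), a change of -35.8%. The log2 fold change was -0.63 (SE 0.11, 95% interval -0.88 to -0.38, limma adjusted p = 0.00348). Without each mouse in turn it lay between -0.73 and -0.55, and all 8 such fits passed the threshold. Its size was under 1.5 times without normal diet mouse 1 or without high fat diet mouse 4. Without normal diet mice 2 and 3, left out after their high cerebellar markers had been seen, the log2 fold change was -0.76 (adjusted p = 0.00504).

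Dusp5 (ENSMUSG00000034765.6, chr19:53529145-53541809) is a nuclear phosphatase that is specific for ERK and induced by it. The FPKM was 6.8, 12.3, 12.8 and 8.3 in normal diet mice 1 to 4, and 6.1, 4.7, 5.4 and 4.5 in the high fat diet mice. The groups did not overlap, but normal diet mouse 1 was close to high fat diet mouse 1, and normal diet mice 2 and 3 stood above the other normal diet mice. The mean fell from 10.1 ± 2.96 (SD, n = 4) to 5.18 ± 0.727 (n = 4), the largest relative change of the 8 members at -48.5%. The log2 fold change was -0.91 (SE 0.20, 95% interval -1.35 to -0.47, limma adjusted p = 0.00792). It passed in all 8 fits that left out 1 mouse (-1.07 to -0.77). Normal diet mice 2 and 3 also had the highest summed FPKM of 7 markers of cerebellar cells, 273.0 and 371.8 against 24.9 and 84.7 in normal diet mice 1 and 4. Other lists set the same mice apart. Astrocyte sums were 1111.2 and 1134.5 against 865.8 and 890.1, and oligodendrocyte sums 3487.2 and 3138.9 against 2848.8 and 2114.9. Cortical excitatory sums were lower, at 328.5 and 309.7 against 436.8 and 460.4. Which of these goes with Dusp5 was not tested. Without these 2 mice the log2 fold change of Dusp5 was -0.54 (SE 0.14, adjusted p = 0.032).

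**Figure D2:**
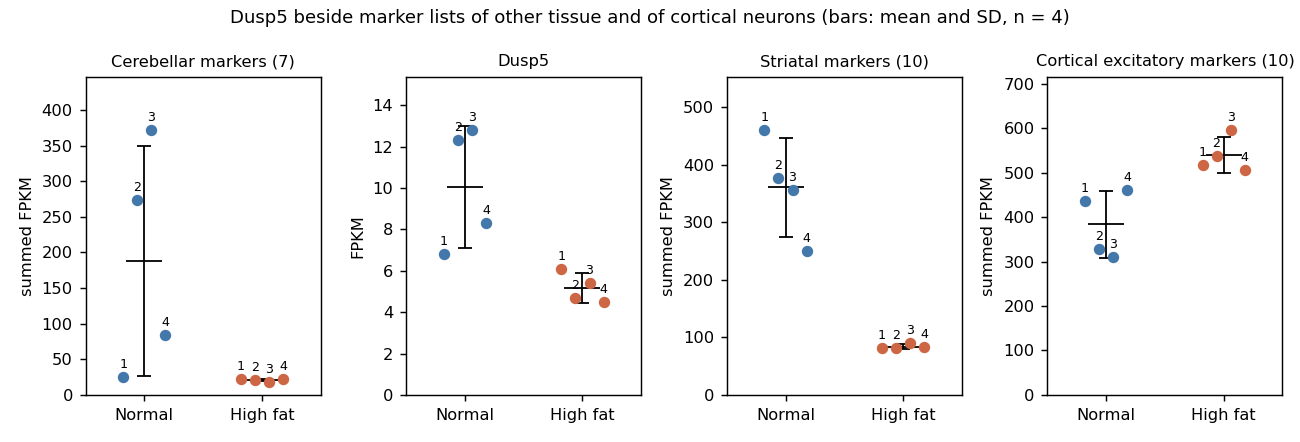
FPKM of Dusp5 and summed FPKM of cerebellar, striatal and cortical excitatory marker lists in each mouse (vertical axes, from 0), with numbered points for mice and bars for the mean and SD (n = 4). Normal diet mice 2 and 3 are the highest of the normal diet mice for both Dusp5 and the cerebellar markers, and the striatal sum is above 250 in each normal diet mouse and below 90 in each high fat diet mouse.

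Dusp4 (ENSMUSG00000031530.6, chr8:34807610-34819894), or MKP-2, is the nuclear enzyme closest to Dusp1 and was the lowest expressed member. The FPKM was 4.9, 5.0, 4.8 and 5.8 on the normal diet and 5.6, 5.0, 5.2 and 4.6 on the high fat diet. The mice of the diets overlapped almost entirely, with means of 5.13 ± 0.457 and 5.1 ± 0.416 (SD, n = 4 each). The log2 difference was -0.01 with a 95% interval from -0.20 to 0.19 (limma adjusted p = 0.962). The nuclear enzymes therefore split, as Dusp1 and Dusp5 passed the test and Dusp4 did not. Within each mouse, Dusp1 over Dusp4 was 2.56 to 3.65 on the normal diet and 1.82 to 2.12 on the high fat diet.

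Dusp7 (ENSMUSG00000053716.9, chr9:106368560-106375724), also named MKP-X, is a cytoplasmic phosphatase of ERK. Its FPKM was 25.1, 20.3, 17.6 and 23.2 on the normal diet, and 26.7, 28.2, 31.3 and 26.2 on the high fat diet. All high fat diet mice were above all normal diet mice, by a small margin between high fat diet mouse 4 and normal diet mouse 1. The mean rose from 21.6 ± 3.29 (SD, n = 4) to 28.1 ± 2.30 (n = 4), by 30.4%. The log2 fold change was 0.39 (SE 0.11, 95% interval 0.15 to 0.63, limma adjusted p = 0.0202). This call depended on single mice. The limma adjusted p was 0.0541 without normal diet mouse 2, 0.0507 without high fat diet mouse 2 and 0.0534 without high fat diet mouse 3, and the log2 fold change without normal diet mice 2 and 3 was 0.22 (adjusted p = 0.0924).

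Dusp6 (ENSMUSG00000019960.8, chr10:99263231-99267489), or MKP-3, is the other cytoplasmic ERK phosphatase and a widely used readout of ERK feedback. The FPKM was 43.6, 32.7, 27.4 and 36.8 on the normal diet and 31.5, 30.0, 32.1 and 25.5 on the high fat diet. The high fat diet mice lay within or just below the wide range of the normal diet mice. Means were 35.1 ± 6.84 and 29.8 ± 2.98 (SD, n = 4 each), and the log2 difference of -0.22 (95% interval -0.52 to 0.07) did not pass (limma adjusted p = 0.215). Without normal diet mice 2 and 3 it was -0.43 (adjusted p = 0.0261).

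Dusp8 (ENSMUSG00000037887.11, chr7:142079487-142095907) is a brain-expressed phosphatase of JNK and p38. Its FPKM was 21.6, 18.7, 19.0 and 23.4 in normal diet mice 1 to 4, against 26.5, 29.4, 29.6 and 25.2 in the high fat diet mice. The diets were separated without overlap, with a mean that rose from 20.7 ± 2.24 (SD, n = 4) to 27.7 ± 2.17 (n = 4), by 33.9%. The log2 fold change was 0.42 (SE 0.08, 95% interval 0.23 to 0.61, limma adjusted p = 0.00548). It passed in all 8 fits without 1 mouse, at 0.38 to 0.48, and was 0.30 without normal diet mice 2 and 3 (adjusted p = 0.0358).

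Dusp3 (ENSMUSG00000003518.13, chr11:101971141-101987013), or VHR, and Dusp14 (ENSMUSG00000018648.15, chr11:84048033-84069256), or MKP6, are the small atypical enzymes and were the highest expressed members. The FPKM of Dusp3 was 73.6, 57.8, 57.4 and 71.1 on the normal diet and 60.0, 62.0, 78.6 and 61.6 on the high fat diet. The diets overlapped, and high fat diet mouse 3 stood above the rest of its group. The log2 difference of Dusp3 was 0.01, with a 95% interval from -0.23 to 0.26 (limma adjusted p = 0.937). Dusp14 had an FPKM of 50.6, 41.0, 34.3 and 47.2 on the normal diet and 32.4, 36.4, 42.4 and 32.4 on the high fat diet. The diets overlapped here too, and the log2 difference was -0.26 (95% interval -0.55 to 0.02, limma adjusted p = 0.138). It passed without normal diet mouse 3 (-0.37, adjusted p = 0.0348) and without normal diet mice 2 and 3 (-0.45, adjusted p = 0.0249).

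**Figure D3:**
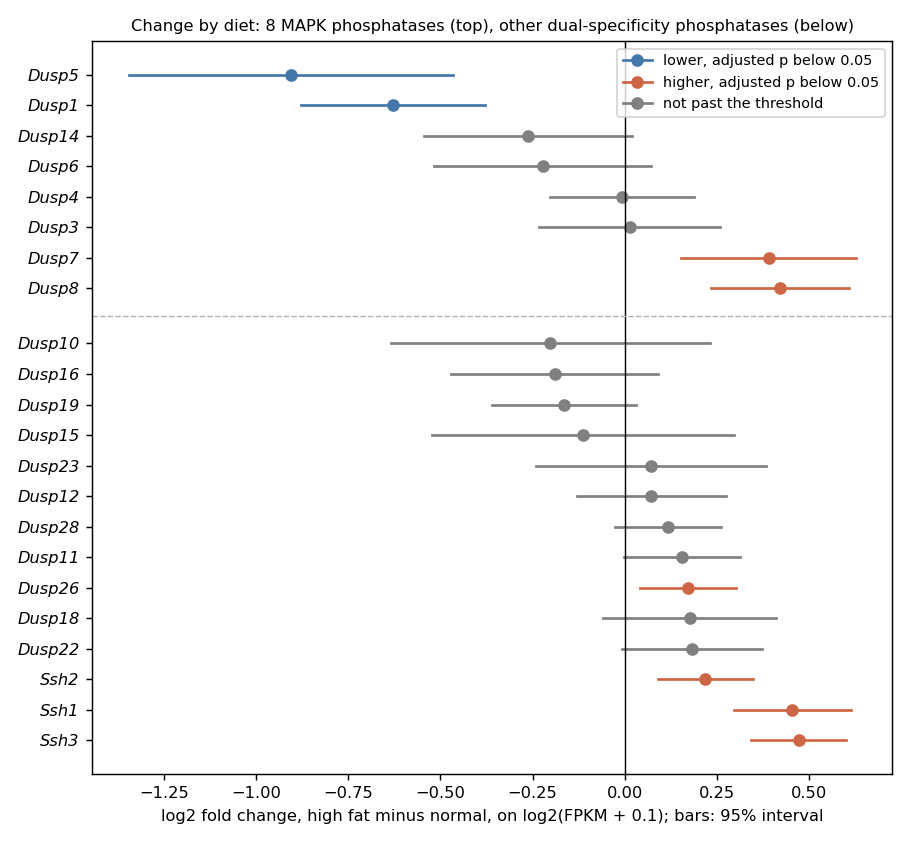
Difference by diet (horizontal axis, log2 fold change, high fat minus normal) with its 95% interval for the 8 MAPK phosphatases, above the dashed line, and 14 other dual-specificity phosphatases, below it. Dusp5 and Dusp1 are on the far left, and of the other phosphatases Dusp26, Ssh1, Ssh2 and Ssh3 passed the threshold, all in the higher direction. Over all genes 15.3% were called lower and 17.7% higher.

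Part of the spread within a diet was shared by several members. Dusp1, Dusp3, Dusp6, Dusp7 and Dusp14 each ranked normal diet mouse 1 first, mouse 4 second, mouse 2 next and mouse 3 last. Dusp5 ran in the reverse order, and Dusp4 and Dusp8 had other orders. Genes outside the family also had the first order, among them Rgs4, Prickle1 and Adgrb2, picked further below for likeness to a member. How many of all genes have it was not counted. High fat diet mouse 3 had the highest Dusp3, Dusp6, Dusp7, Dusp8 and Dusp14. Ratios of a pair of members within a mouse remove what such a pair shares, so they were computed for all 28 pairs after these values had been seen. In 17 pairs the ratios of the diets did not overlap, and each of these had the smallest p that an exact two-sided permutation test over the 70 assignments of 4 and 4 mice can give, 0.0286, or 0.0471 after Benjamini-Hochberg adjustment over the pairs. Over all pairs of tested genes 31.7% were separated in this way, and the members enter with calls in both directions, which sets many of their ratios apart.

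The 2 cytoplasmic ERK phosphatases were at nearly equal levels on the high fat diet, whereas Dusp6 was above Dusp7 on the normal diet. Dusp6 over Dusp7 was 1.74, 1.61, 1.56 and 1.59 in normal diet mice 1 to 4 and 1.18, 1.06, 1.03 and 0.973 in the high fat diet mice. The diets were far apart against a spread of 0.0793 and 0.0877 (SD), with a log2 difference of -0.62 (exact permutation p = 0.0286). Dusp1 over Dusp8, which sets the main inducible enzyme against the JNK and p38 enzyme, was 0.829, 0.824, 0.647 and 0.662 on the normal diet and 0.385, 0.361, 0.334 and 0.337 on the high fat diet. Its log2 difference was -1.06. The largest log2 difference of a pair was that of Dusp5 over Dusp8, at -1.34, and the ratio there was 0.315 to 0.674 on the normal diet and 0.160 to 0.230 on the high fat diet.

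Dusp7 over Dusp14 was nearly constant among the normal diet mice, although neither gene was. The ratio was 0.496, 0.495, 0.513 and 0.492 on the normal diet and 0.824, 0.775, 0.738 and 0.809 on the high fat diet, a log2 difference of 0.66. The pair of higher members and the pair of lower members each overlapped. Dusp7 over Dusp8 was 0.926 to 1.16 on the normal diet and 0.959 to 1.06 on the high fat diet (exact permutation p = 0.714, adjusted p = 0.769). Dusp1 over Dusp5 was 0.961 to 2.63 and 1.67 to 2.26 (exact permutation p = 0.457, adjusted p = 0.512). Dusp6 over Dusp14, a pair in which neither member passed the test, overlapped as well, at 0.780 to 0.862 and 0.757 to 0.972 (exact permutation p = 0.743, adjusted p = 0.771).

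**Figure D4:**
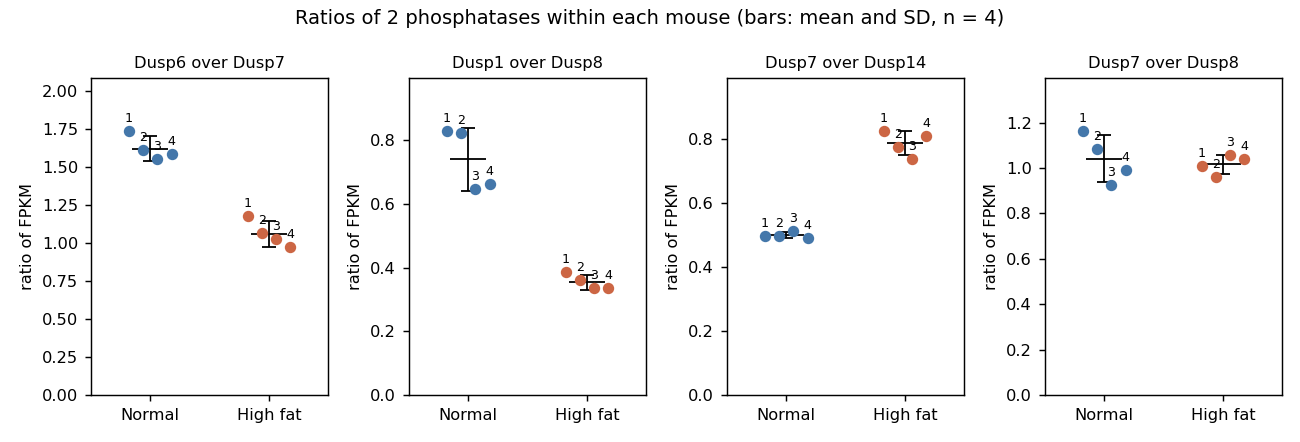
Ratio of the FPKM of 2 phosphatases within each mouse (vertical axes, from 0) for 4 of the 28 pairs, with numbered points for mice and bars for the mean and SD (n = 4). The diets are apart for Dusp6 over Dusp7, Dusp1 over Dusp8 and Dusp7 over Dusp14 and overlap for Dusp7 over Dusp8.

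The other dual-specificity phosphatases of the table showed no lower call. Of 20 genes listed, 14 were tested, of which 4 were higher and 10 did not pass, with a median log2 fold change of 0.14. The share called was 28.6%, beside 33.1% of all genes. As only 15.3% of all genes were called lower, few lower calls would be looked for among 14 genes. The 4 were the slingshot phosphatases Ssh3 (0.47, limma adjusted p = 0.000864), Ssh1 (0.46, adjusted p = 0.00211) and Ssh2 (0.22, adjusted p = 0.018), which act on cofilin rather than on MAP kinases, and Dusp26 (0.17, adjusted p = 0.0478), a brain-expressed atypical phosphatase. The remaining genes of that list lay between -0.20 (Dusp10) and 0.18 (Dusp22). Ssh1 and Ssh3 passed whichever mouse was left out, Ssh2 passed except without high fat diet mouse 2, and Dusp26 passed in only 2 of the 8 such fits, so that the count was 2 without high fat diet mouse 2. Dusp10 and Dusp16, inducible phosphatases of JNK and p38 named here after their values were seen, were like Dusp5 highest in normal diet mice 2 and 3. Their FPKM there was 4.6 and 5.3 for Dusp10 and 4.5 and 5.5 for Dusp16, against 2.9 and 3.0 and 3.6 and 3.8 in mice 1 and 4.

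With all 8 mice, the MAP kinases and their direct activators had higher calls and no lower call. Of 12 MAP kinases tested 5 were higher and 0 lower (median 0.14), and of 7 MAP2 kinases 3 were higher and 0 lower (median 0.14). The shares called were 41.7% and 42.9%, beside 33.1% of all genes (15.3% lower, 17.7% higher). With lists this short, the absence of lower calls is weak evidence of a direction. Mapk3, which encodes ERK1, rose from 40.3 ± 2.01 (SD, n = 4) to 54.3 ± 3.26 FPKM (n = 4), a log2 fold change of 0.43 (limma adjusted p = 0.00112). The other MAP kinases with the largest changes were the atypical kinase Mapk4 (0.69, adjusted p = 0.000695), Nlk (0.44, adjusted p = 0.0379) and the p38 kinase Mapk11 (0.44, adjusted p = 0.00809). Map2k2, the activator of ERK also known as MEK2, rose by 0.36 on the log2 scale (adjusted p = 0.00987). Map2k6, an activator of p38, rose by 0.36 (adjusted p = 0.00693), and Map2k5, which activates ERK5, by 0.23 (adjusted p = 0.0205). Of these genes, Nlk passed in 3 and Map2k5 in 5 of the 8 fits without 1 mouse, and the others named passed in all. Without normal diet mice 2 and 3 the MAP kinases had 3 higher and 0 lower calls and the MAP2 kinases 1 higher and 1 lower.

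Genes further upstream were called in both directions, but several of these calls rested on single mice. Of 14 MAP3 and RAF kinases 6 were higher and 3 lower (median 0.09), led by Map3k9 at 0.70 (limma adjusted p = 0.000793) and Map3k1 at -0.39 (adjusted p = 0.0227). The calls made up 64.3% of the list, beside 33.1% of all genes (15.3% lower, 17.7% higher). Map3k13 (0.30, adjusted p = 0.0128) and Map3k5 (0.25, adjusted p = 0.0214) were higher as well. Map3k9 and Map3k13 passed whichever mouse was left out, Map3k5 in 5 and Map3k1 in 4 of the 8 fits. The lower calls of this list numbered 0 without normal diet mouse 3 and 1 without normal diet mouse 2 or high fat diet mouse 2, 3 or 4, and the higher calls numbered 3 without high fat diet mouse 2 and 2 without high fat diet mouse 3. With the replicate block or without normal diet mice 2 and 3 the list had 0 lower and 2 higher calls. Of 16 RAS proteins, exchange factors and GTPase-activating proteins 3 were higher and 1 lower (median 0.02). Their share called, 25.0%, was below the 33.1% of all genes. Rasgrp2, an exchange factor known to be abundant in striatal neurons, fell by 0.72 on the log2 scale (adjusted p = 0.00285). Nf1, a GTPase-activating protein of RAS, rose by 0.20 (adjusted p = 0.00659). Both passed whichever mouse was left out. The exchange factor Sos1 (0.17, adjusted p = 0.0472) passed in 0 of the 8 fits without 1 mouse. The lower calls of this list numbered 2 without normal diet mouse 1 or 3 or high fat diet mouse 2.

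Of 8 other inhibitors of ERK signalling tested, 4 were higher and 0 lower with all mice, with a median of 0.21. Spred2 rose from 11.5 ± 0.785 (SD, n = 4) to 18.5 ± 2.05 FPKM (n = 4), a log2 fold change of 0.68 (limma adjusted p = 0.00090). Spred3 (0.53, adjusted p = 0.00123) and Spred1 (0.29, adjusted p = 0.0133), which like Spred2 block the activation of RAF, and Spry2 (0.24, adjusted p = 0.0182), a sprouty protein, were the others. Spry2 did not pass without high fat diet mouse 1. Without normal diet mice 2 and 3 only Spred2 and Spred3 passed. Ptprr, a tyrosine phosphatase of ERK named after its value was seen, had 6.3, 11.5, 12.6 and 7.4 FPKM on the normal diet and 6.3, 6.7, 5.3 and 6.3 on the high fat diet, a log2 difference of -0.56 (adjusted p = 0.0603). It was called lower without normal diet mouse 1 and without normal diet mouse 4. Of 11 MAPK-activated kinases 3 were higher and 1 lower (median -0.10). Their share called was 36.4%, near that of all genes. Rps6ka2, a ribosomal S6 kinase downstream of ERK, was higher by 0.57 (adjusted p = 0.000651), Rps6ka4 by 0.33 (adjusted p = 0.00299) and Rps6ka3 by 0.22 (adjusted p = 0.0198), whereas Rps6ka5 fell by 0.30 on the log2 scale (adjusted p = 0.0206). Rps6ka5 did not pass without high fat diet mouse 1 or 2, leaving 0 lower calls, and there were 2 lower calls without normal diet mouse 1. Rps6ka3 passed in 5 of the 8 fits without 1 mouse.

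The immediate early genes that ERK induces, like Dusp1 and Dusp5, were called in both directions. Of 14 tested, 4 were lower and 1 higher, and all of these changed by over 1.5 times (median of the list -0.03). Fos had an FPKM of 22.0, 20.7, 20.8 and 23.0 on the normal diet and 11.8, 9.7, 8.6 and 7.0 on the high fat diet. The diets were clearly separated, and the log2 fold change was -1.24 (limma adjusted p = 0.00065). Arc, a postsynaptic protein induced by activity, fell by 0.78 on the log2 scale (adjusted p = 0.00897) and Egr2 by 0.80 (adjusted p = 0.0117). Ier2 was the other lower gene, and it did not pass without normal diet mice 2 and 3 (-0.59, limma adjusted p = 0.119). Egr3 went the other way, with an FPKM of 16.6, 12.8, 11.3 and 19.4 on the normal diet and 27.7, 30.9, 37.2 and 24.8 on the high fat diet and a log2 fold change of 1.02 (adjusted p = 0.00301). The 5 called genes passed whichever mouse was left out, and Fosb, named after its value was seen, was also called higher without normal diet mouse 4. Of 7 ETS factors that carry the ERK response, 3 were higher and 1 lower (median 0.26). This was 57.1% of a short list, beside 33.1% of all genes (15.3% lower, 17.7% higher). Etv5 rose by 0.56 (adjusted p = 0.00246), Ets2 by 0.40 (adjusted p = 0.00203) and Elk1 by 0.26 (adjusted p = 0.0336), and Etv4, at only about 3 FPKM, fell by 0.32 on the log2 scale (adjusted p = 0.0332). Elk1 and Etv4 each passed in only 2 of the 8 fits without 1 mouse, and Etv4 did so only without normal diet mouse 1 or high fat diet mouse 3.

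Over the 9 pathway lists, 103 of 115 genes were tested and the rest were not analysed here. Of the 103, 10 were lower, 32 higher and 61 did not pass, so that 40.8% were called beside 33.1% of all genes. Their median log2 fold change was 0.11, and 40 of the 103 did not overlap between the diets, where 31.9% of all genes did not. The share of calls in the higher direction was 76.2% among these genes and 53.6% over all genes.

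**Figure D5:**
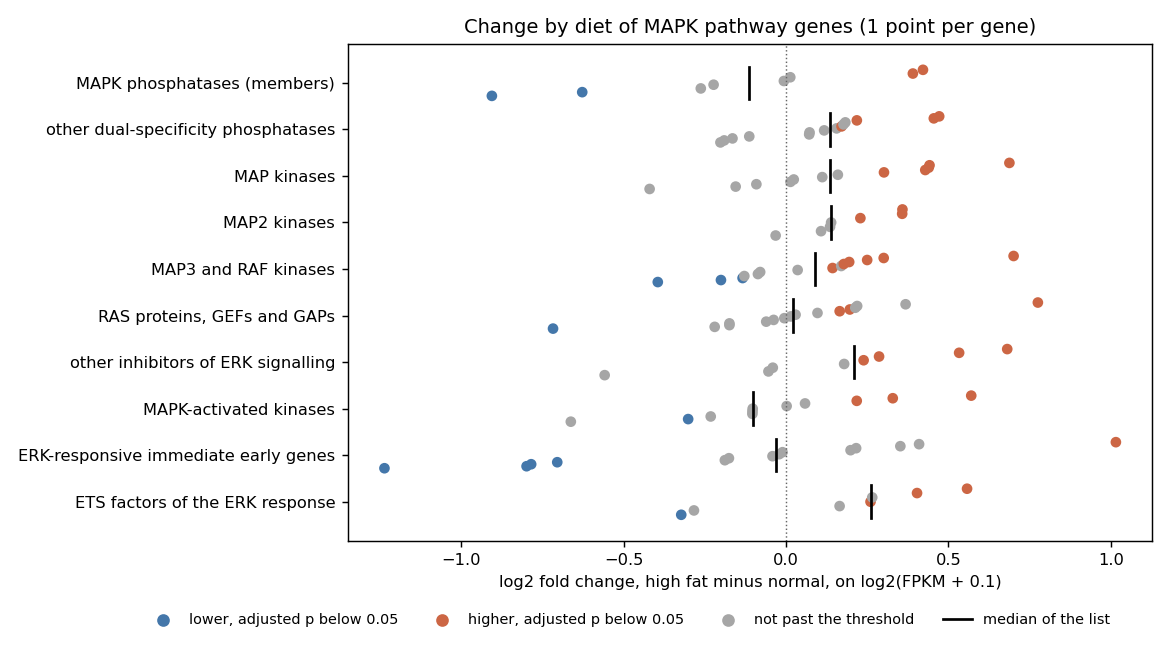
Difference by diet (horizontal axis, log2 fold change, high fat minus normal) of every tested gene of the members and of 9 MAPK pathway lists, with 1 point per gene and a black line at the median of each list. MAP kinases, MAP2 kinases and other inhibitors of ERK signalling have calls in the higher direction only with all 8 mice, and the immediate early genes have 4 lower calls and 1 higher call. Among all genes 15.3% were called lower and 17.7% higher.

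The tissue label was checked with marker lists, and several lists moved with diet together with the members. Markers of cortical excitatory neurons were present in all mice and higher on the high fat diet, with a summed FPKM of 309.7 to 460.4 against 505.8 to 596.2 and 7 of 10 genes called higher. Striatal neuron markers, which should be scarce in cortex, summed to 250.1 to 460.2 on the normal diet and 81.0 to 89.6 on the high fat diet, with 10 of 10 called lower, among them Penk, which averaged 108.9 and 11.2 FPKM. The cerebellar list summed to 24.9 to 371.8 and 18.5 to 22.3, with 4 of 6 tested genes lower and Gabra6 listed at 0 in 1 mouse. Oligodendrocyte markers were 8 of 8 lower (2114.9 to 3487.2 against 1458.1 to 2025.9) and blood markers 5 of 5 lower (239.2 to 479.7 against 199.1 to 247.4). Astrocyte markers had 3 of 7 lower (865.8 to 1134.5 against 803.8 to 890.2), choroid plexus markers 3 of 6 lower (343.6 to 728.8 against 21.2 to 942.3), and endothelial markers 2 lower and 1 higher of 7 (81.7 to 89.7 against 73.6 to 83.4). Microglia markers had 0 of 6 called (105.4 to 128.3 against 110.7 to 121.9). Because these shifts run with the diet, tissue composition and diet cannot be told apart for Dusp1, Dusp5, Dusp7, Dusp8 and the called pathway genes. A list of 10 genes induced by glucocorticoids, hormones that also induce Dusp1, overlapped between the diets in its sum (160.8 to 198.6 against 157.8 to 205.0), with 3 of its genes lower and 1 higher. That is 40.0% called, beside 33.1% of all genes.

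The genes with the pattern most like each called member were sought among the 9638 genes whose FPKM averaged 5 or more, by the root mean square difference of centred log2 values over the 8 mice. For Dusp1 these were Rgs4 (0.118), Zswim6 (0.128) and Itm2a (0.132). For Dusp5 they were Metrn (0.13), Grin2c (0.143), an NMDA receptor subunit, and Olfm3 (0.145). These genes were picked for the likeness, so the levels that they share with the member are no further result. The distances were smaller for Dusp7 and Dusp8 than for Dusp1 and Dusp5. This measure is not scaled and grows with the spread of a gene over the mice. The members can therefore not be ranked by it for closeness of pattern. Dusp7 was nearest to Prickle1 (0.0362), Adgrb2 (0.0434) and Rasal2 (0.0434), a GTPase-activating protein of RAS, and Dusp8 to Palm (0.0333), Rilpl1 (0.0357) and Atxn2 (0.0378).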

How the data were processed

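The authors sequenced rRNA-depleted total RNA with a stranded kit, trimmed the reads (FastQC, Trimmomatic), used STAR for alignment to mm10 and computed the deposited FPKM values with Cuffnorm on GENCODE M17 (GRCm38.p6). The sources used here name no versions of these tools. The deposited FPKM values are rounded to 0.1 and sum to 562431 to 639142 per mouse, and the depth is unknown. Genes with a mean FPKM under 1 or a 0 were left out, as in the study, leaving 13982 of 13996. The diets were compared with limma 3.58.1 in R 4.3.3 on log2(FPKM + 0.1) (two-sided, prior variance following the mean), and p-values were adjusted after Benjamini and Hochberg. Fold changes on this scale understate changes of low genes. Ratios and tables were computed with Python 3.11.15 and scipy 1.17.1, and the fit was tested on simulated data. Gene coordinates and promoters come from RefSeq on GRCm38.p6.

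The members and lists were chosen with earlier results of these data known. Named genes were all members, up to 4 called genes per pathway list with the largest change, up to 3 markers per list and 3 most alike genes per called member, and a few of these are not reported here. Alternatives changed the added constant, the filter, the scaling, the variance trend, a replicate block and the mice.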

Additional observations from a re-analysis of the deposited data

Results flagged for a closer look

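In 15 of 162 groups of 4 mice examined, 1 mouse stood so far from the others that the gap exceeded 0.829 of the range of the group. Chance flags about 1 in 20 groups. Among the members this held for Dusp3, at 78.6 FPKM in high fat diet mouse 3. Among the pathway genes, the lowest normal diet mouse stood apart for Ssh2 (6.1 FPKM), Spred1 (37.1 FPKM) and Etv4 (2.7 FPKM), and the lowest high fat diet mouse for Map2k5 (9.0 FPKM) and Rps6ka2 (19.4 FPKM). Among the markers, high fat diet mouse 3 stood apart for Mbp (949.5 FPKM), Mobp (402.0 FPKM) and the oligodendrocyte sum (2025.9 FPKM). High fat diet mouse 4 did so for Ttr (920.7 FPKM), Folr1 (7.2 FPKM), Kl (5.7 FPKM) and the choroid plexus sum (942.3 FPKM). The highest normal diet mouse did so for Cldn5 (26.4 FPKM) and Slco1a4 (16.4 FPKM).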

How the results depend on the processing

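No called member changed its direction under any alternative that was run, while the differences of Dusp3 and Dusp4, close to 0, took either sign when single mice were left out. Dusp1, Dusp5 and Dusp8 passed in all 7 fits with another constant, filter, scaling, variance model or replicate block, and Dusp7 in 6 of 7. With an added constant of 1, 1 member in place of 2 was lower by over 1.5 times, and the count of all genes changed by that size was 603 in place of 997. With a mean FPKM of at least 5 it was 422. With the replicate number as a replicate block, 1 member in place of 2 was higher (Dusp7, adjusted p = 0.0614), and all genes gave 1550 lower and 1840 higher. The labels do not say whether the numbers pair the mice. Deviations of same-numbered mice correlated at -0.0382, -0.0275, -0.109 and -0.0717, and with 4 mice per diet these values cannot settle it. Leaving out 1 mouse at a time gave 1 to 2 higher members and 1 to 2 members lower by over 1.5 times. Without normal diet mice 2 and 3, chosen after seeing the data, 4 members were lower (Dusp6 and Dusp14 were added), 1 was higher and 1 was lower by over 1.5 times. The pathway lists then gave 5 lower and 20 higher in place of 10 and 32, and all genes 1215 lower and 1528 higher in place of 2146 and 2480, with 604 changed by over 1.5 times. The cause was not tested, and fewer mice entered these fits. Pairs without overlapping ratios numbered 17 to 20. No scaling moved the median of all genes by as much as 0.1 (log2). With unknown depth and values rounded to 0.1 FPKM, low genes such as Dusp4 and Dusp5 carry the coarsest steps.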
